A study of Mus musculus with 36 samples.

Results

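Chemokines and chemokine receptors were followed in liver, kidney, muscle and brain of female mice with 1 or 2 X chromosomes. The members were all array probes annotated to a gene whose symbol begins with Ccl, Cxcl, Ccr or Cxcr and a number, or is Cx3cl1 or Cx3cr1, while Ccrl and Ccrn genes were left out. There were 40 such probes among the 28885 of the normalised table, for 31 of 13588 annotated genes. Of these, 35 probes belonged to 26 genes with ligand symbols and 5 probes to the receptors Ccr1, Ccr6, Ccr7, Cx3cr1 and Cxcr4. Among the former, Cxcl11 is annotated as a transcribed pseudogene. No member gene lies on the X chromosome. Chromosome 11 holds 10 of the 31 genes, chromosome 5 holds 7, chromosome 8 holds 4 and chromosome 4 holds 3.

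RNA of 40,XX, 39,XpO and 39,XmO females aged 12 weeks was hybridised to Illumina mouse BeadChips. The single X came from the father in XpO and from the mother in XmO mice. For each tissue there were 3 pools per genotype, each of RNA from 2 to 3 mice, on the random bred MF1 background with an X chromosome that goes back to 1 progenitor in every mouse. The XX and XpO mice were born to 40,In(X)1H/XPaf mothers mated with 40,XY males, and the XmO mice to 40,XX mothers mated with 40,XPafY* males. A comparison of XmO with either other genotype is thus also one of crosses, and so in part is that of XX with all XO pools. Of 36 arrays 35 were used, all but that of XpO pool 3 in muscle, with a median intensity of 55.6 to 70.4. Xist, the RNA that coats the inactive X, checked the labels: its brighter probe read at least 11.54 (log2 signal) in the XX liver pools against at most 6.61 in the XO liver pools, and the groups stood apart in the other 3 tissues too.

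Chemokines are small secreted or membrane-bound proteins that guide migrating cells along gradients, and they act through receptors coupled to G proteins on leukocytes and some other cells. Homeostatic chemokines such as Ccl21 and Cxcl12 direct cells to lymphoid organs and bone marrow in the healthy animal, while inflammatory ones such as Cxcl1 and Cxcl9 are induced by infection or cytokines. Cx3cl1 is made by neurons and its receptor Cx3cr1 by microglia, the macrophages of the brain.

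The Ccl21 genes are shown first because the results below turn on a Ccl21b probe whose target was not tied to 1 gene copy. Assembly GRCm38.p6 has 7 Ccl21 copies in the mouse gene table (Ccl21a, Ccl21b, Ccl21c, Ccl21d, Gm13304, Gm10591 and Gm1987), all on chromosome 4. Which of them each of the 3 Ccl21 probes binds was not tested. The probe ILMN_2640842, the only one of the 3 whose sequence is given here, has this sequence of 50 bases:
Ccl21b probe: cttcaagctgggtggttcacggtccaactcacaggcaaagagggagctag
The promoter windows of some of these copies were alike. In RefSeq promoter windows (GRCm38.p6) the window of Ccl21a (chr4:42773942-42774241, minus strand) and that of Ccl21d (chr4:41903363-41903662, plus strand) differed at 2 of 299 aligned bases, shown in capitals:
Ccl21a promoter: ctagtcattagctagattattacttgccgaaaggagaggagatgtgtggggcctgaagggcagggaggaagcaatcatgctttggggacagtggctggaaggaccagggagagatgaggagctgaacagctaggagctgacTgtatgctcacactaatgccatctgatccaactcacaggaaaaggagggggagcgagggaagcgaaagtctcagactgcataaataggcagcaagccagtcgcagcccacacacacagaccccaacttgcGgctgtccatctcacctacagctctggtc
Ccl21d promoter: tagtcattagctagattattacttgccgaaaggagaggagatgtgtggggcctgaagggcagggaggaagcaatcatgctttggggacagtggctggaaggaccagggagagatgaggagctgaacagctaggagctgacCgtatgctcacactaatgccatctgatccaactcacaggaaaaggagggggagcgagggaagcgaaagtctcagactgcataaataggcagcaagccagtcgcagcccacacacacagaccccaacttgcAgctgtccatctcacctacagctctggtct
The windows of Gm13304 and Gm10591 were the same over 300 bases and differed from that of Ccl21a at 3 of 299 bases and from that of Ccl21d at 1 of 300. The window listed for Ccl21b starts its gene model elsewhere and does not align with the others. Ccl27a, the ligand of Ccr10 in skin, has the same limit, with 3 copies on chromosome 4, and its gene also overlaps the end of Il11ra1.

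A probe with values for a tissue in the authors' normalised table was taken as detected there. By this measure 31 members were detected in liver (77.5%, against 68.8% of all probes), 34 in kidney (85% against 81.1%), 33 in muscle (82.5% against 75.5%) and 28 in brain (70% against 86.1%). Brain was the tissue with the largest share of all probes detected and the smallest share of members. Of the 40 members 22 were detected in all 4 tissues, 8 in 3 tissues, 4 in 2 tissues (Ccl11, Ccl22, Ccl24 and Ccl5) and 6 in 1 tissue. The last included Ccl17, a ligand of Ccr4, and the Ccl20 receptor Ccr6 in brain, and a Ccl28 probe (ILMN_1218590) in kidney. The others were the monocyte attractant Ccl8 and the lung chemokine Cxcl15 in muscle, and the annotated pseudogene Cxcl11 in liver. Signals are given as log2 of the intensity after quantile normalisation, on which 95% of the probes detected in no tissue lay under 5.87 to 5.97, depending on the tissue. Signals of different probes are not compared, since each probe binds with its own strength.

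The liver was marked by Ccl9, a ligand of Ccr1, and by the inflammatory ligands Cxcl1 and Cxcl9. Ccl9 ranged from 11.37 to 11.71 over the 9 liver pools (median 11.52), from 8.45 to 8.85 over the 8 muscle pools, from 5.96 to 6.71 in kidney and from 5.75 to 6.10 in brain. No liver pool came within the range of another tissue, and the mean was 7.27-fold above muscle, 35.2-fold above kidney and 46.7-fold above brain. Cxcl1, which draws neutrophils through Cxcr2, read 8.92 to 10.05 in liver, with a mean 5.21-fold above muscle, 5.82-fold above kidney and 10.5-fold above brain. One muscle pool, XX pool 3, stood at 8.08 for Cxcl1, while the other 7 muscle pools read 6.67 to 7.16. Cxcl9, an interferon-induced ligand of Cxcr3, read 9.13 to 9.79 in liver (ILMN_1215862), 3.38-fold above muscle and 7.16-fold above kidney by the means, while its brain mean (5.87) was at the level of undetected probes. Its other probe was also highest in liver.

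Cxcl1 is also a member whose promoter holds the binding sequence of NF-kappaB, the factor that induces many inflammatory chemokines. The RefSeq window of Cxcl1 (chr5:90890995-90891294, plus strand, GRCm38.p6) is shown with the match in capitals, a stretch in which matches on both strands overlap:
Cxcl1 promoter: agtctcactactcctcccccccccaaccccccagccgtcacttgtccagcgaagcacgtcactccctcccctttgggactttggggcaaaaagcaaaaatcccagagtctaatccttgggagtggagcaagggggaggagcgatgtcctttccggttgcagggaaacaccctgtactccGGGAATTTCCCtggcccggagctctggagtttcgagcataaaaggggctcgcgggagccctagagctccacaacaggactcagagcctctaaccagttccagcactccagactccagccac
The NF-kappaB consensus, searched on both strands, was present in 8.46% of 32851 promoter windows and in 5 of the 26 windows of member genes (19.2%), for the 22 of 31 member genes that have one. These were windows of Ccl27a, Ccl9, Ccr1, Ccr6 and Cxcl1. A match is a description of the sequence and not a measured site.

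Cxcl12, the ligand of Cxcr4 that holds blood stem cells in bone marrow, was detected in every tissue and highest in liver by both of its probes. ILMN_2658910 read 12.88 to 13.30 in liver, 11.77 to 12.22 in kidney, 11.60 to 12.03 in muscle and 10.69 to 11.12 in brain. The liver mean was 2.21-fold above kidney, 2.41-fold above muscle and 4.56-fold above brain, and the kidney and muscle pools overlapped. ILMN_2737302 read 10.03 to 10.44 in liver and 9.38 to 9.79 in kidney, without overlap, with brain lowest at 6.82 to 7.92. Ccl24, an eotaxin that attracts eosinophils, was detected in liver (7.77 to 8.72) and muscle (7.20 to 7.91), which overlapped, and not in kidney or brain. The liver also had the highest mean of Ccl5, Ccl7, Ccl4 and Ccl6, which attract T cells, monocytes or macrophages, at 7.01, 7.40, 6.72 and 6.92 on the scale of each probe. The liver pools of Ccl6 overlapped with those of muscle (1.06-fold by the means) and those of Ccl4 with those of kidney (1.30-fold). Kupffer cells, the liver macrophages, were represented by their defining marker Clec4f, which had a mean log2 signal of 10.51 in liver and at most 6.16 in the other tissues. How much of any liver level came from those cells was not tested.

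Kidney was the tissue of highest signal for Cxcl16, a membrane-bound ligand of Cxcr6. ILMN_2687586 read 9.83 to 10.31 in the 9 kidney pools, 7.90 to 8.36 in liver, 6.94 to 7.32 in muscle and 6.03 to 6.36 in brain, with no overlap between tissues. The kidney mean was 4.02-fold above liver, 8.27-fold above muscle and 14.9-fold above brain, and the other Cxcl16 probe was highest in kidney too. The Ccl28 probe ILMN_1218590, for a ligand of Ccr10 found at mucosal surfaces, was detected in kidney alone and read 6.35 to 8.15 there. Its kidney mean was at least 2.78-fold above the other tissues, which had no values. The other Ccl28 probe, ILMN_2545248, did not share this order: its highest mean was in liver (6.64) and it read 6.20 to 6.33 in kidney.

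Muscle had the highest signal of the eotaxin Ccl11 and of all 3 Ccl21 probes. Ccl11 read 9.33 to 9.89 in the 8 muscle pools and 5.65 to 6.60 in kidney, an 11.4-fold difference of the means, and it was at least 15.5-fold higher in muscle than in liver or brain, where it was not detected. The Ccl21b probe ILMN_2640842 had a mean of 10.24 in muscle, 3.84-fold above kidney, 12.1-fold above liver and 14.6-fold above brain. The muscle pools of Cxcl14, a chemokine made by epithelia and fibroblasts, read 9.18 to 9.68 (ILMN_2760800), with a mean 1.82-fold above that of brain (8.12 to 8.96). The other Cxcl14 probe, ILMN_2659427, also had its highest mean in muscle. Its muscle pools overlapped with those of brain (1.435-fold by the means) and liver (1.535-fold). Cxcr4, the receptor of Cxcl12, had its highest mean in muscle as well (7.72), where its pools overlapped with those of kidney (1.57-fold by the means). Ccr7, the receptor of Ccl21, was not detected in liver and lay at 5.86 to 6.26 in the other 3 tissues, close to the level of undetected probes. For Cxcl15 in muscle a single pool, XmO pool 3, read 7.75, while the other 7 read 5.39 to 6.24.

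Brain was the tissue of the fractalkine pair. Cx3cl1 read 11.54 to 13.00 in brain, 9.13 to 9.82 in kidney, 6.42 to 6.87 in muscle and 6.12 to 6.43 in liver. The brain mean was 7.43-fold above kidney, 55.1-fold above muscle and 72.4-fold above liver, where the signal was near that of undetected probes. Cx3cr1 read 7.71 to 8.98 in brain, 6.73 to 7.12 in kidney and 5.95 to 6.51 in muscle. Its brain mean was 3.05-fold above kidney, 4.99-fold above muscle and at least 5.63-fold above liver, where it was not detected. Ccl27a read 8.73 to 10.02 in brain, 4.50-fold to 4.94-fold above the means of the other tissues, which overlapped with each other. In bulk RNA, more cells of a type and more RNA per cell cannot be told apart.

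**Figure D1:**
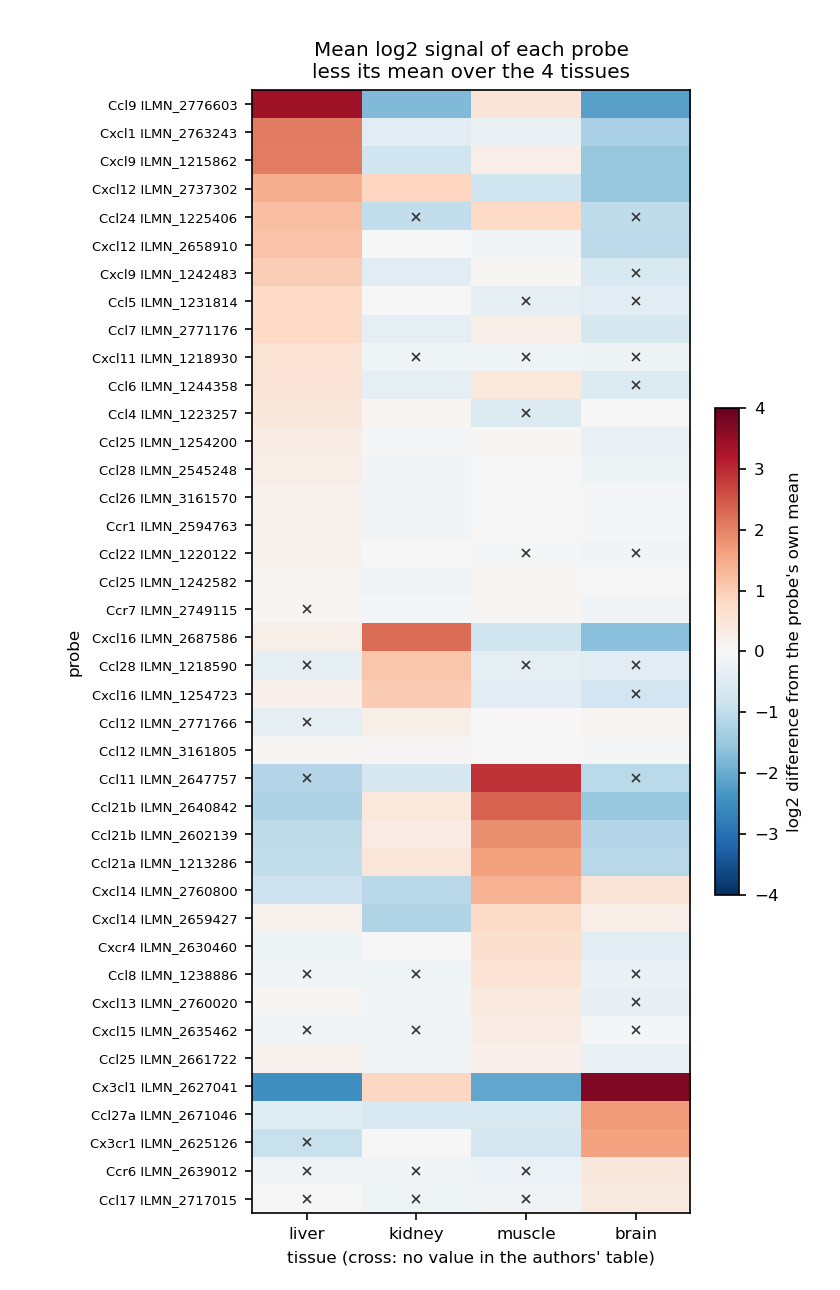
Mean log2 signal of each of the 40 member probes in liver, kidney, muscle and brain, less the probe's own mean over the 4 tissues, in colour (log2 difference), with a cross where the authors' table holds no value. Rows are grouped by the tissue of the highest mean; the strongest colours are those of Ccl9 in liver, Ccl11 in muscle and Cx3cl1 in brain.

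**Figure D2:**
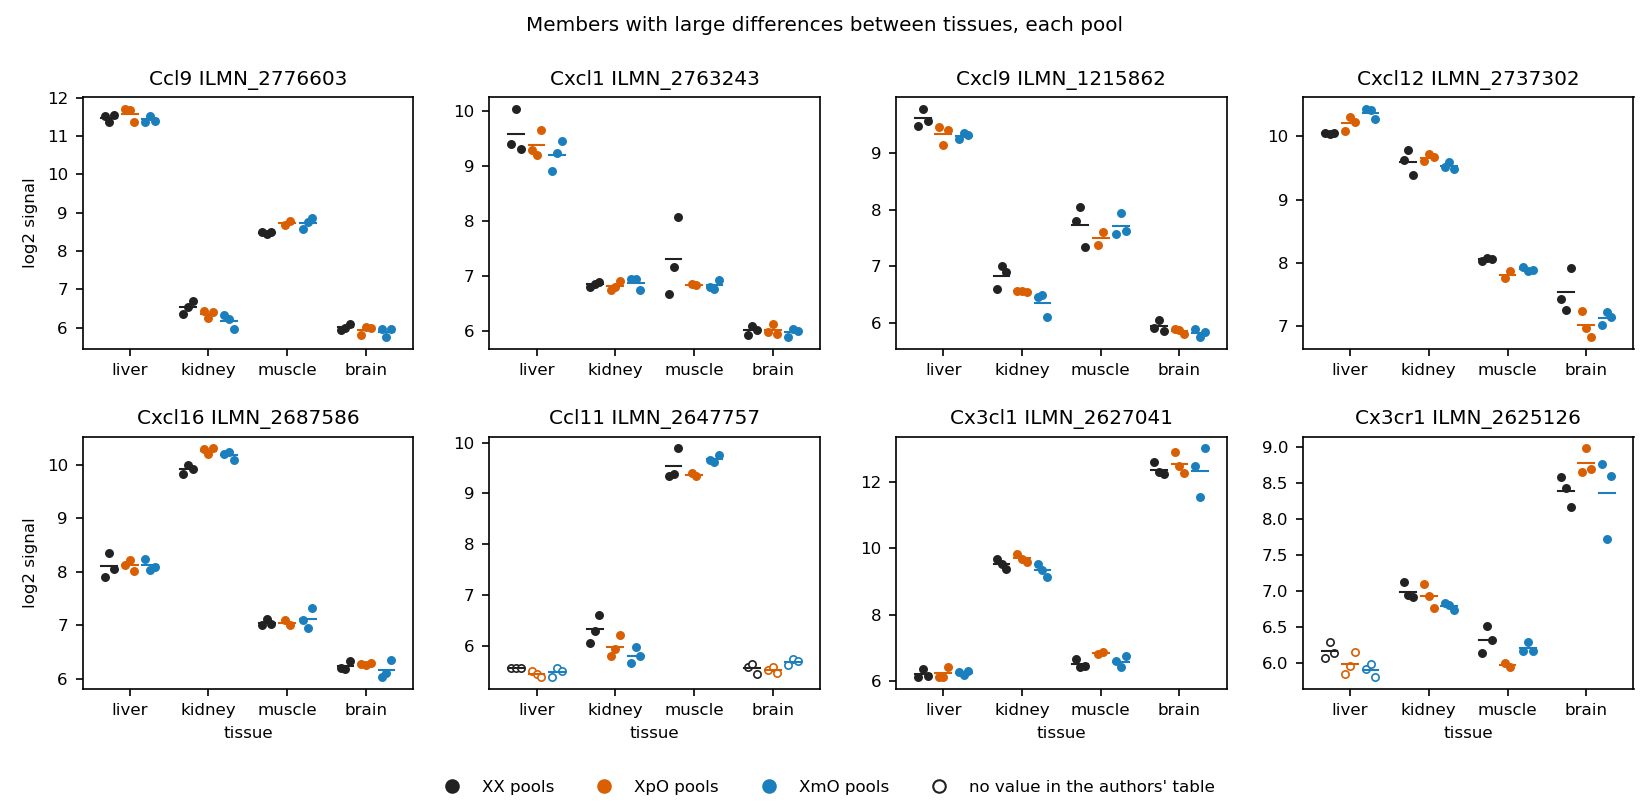
Log2 signal (vertical axis) of 8 members in each pool of the 4 tissues (horizontal axis), with pools coloured by genotype, a line at each group mean and open circles where the probe was not detected. For Ccl9 the 9 liver pools lie above 11, and for Cx3cl1 the 9 brain pools lie at 11.54 or more, while pools of different genotypes lie close together within a tissue.

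Each tissue was compared with the mean of the other 3 by limma over all 28885 probes. In liver 35 of 40 members passed an adjusted p of 0.05 (83.2% of all probes passed), with 31 for kidney (76.8%), 30 for muscle (76.1%) and 36 for brain (86.1%), so that passing was the rule for any probe. Members past the threshold and higher by more than 1 on the log2 scale numbered 9 in liver (8.38% of all probes), 5 in kidney (7.42%), 7 in muscle (8.57%) and 3 in brain (12%). Those lower by more than 1 were 7 for liver (10.6%), 5 for kidney (6.66%), 3 for muscle (9.15%) and 12 for brain (12%). The median difference (log2) was 0.20 for the 40 members and -0.05 for all probes in liver, and -0.39 and -0.10 in brain, and no test was made of either gap. The sizes were 4.51 (SE 0.0489) for Ccl9 in liver, 2.98 (SE 0.0470) for Cxcl16 ILMN_2687586 in kidney, 3.82 (SE 0.0603) for Ccl11 in muscle and 4.94 (SE 0.0976) for Cx3cl1 in brain. These 4 contrasts share arrays, and the fit takes arrays as independent although the tissues came from the same pools of mice. On the authors' scale only the 22 members with values in every tissue could be fitted, and the median of all probes moved to -0.31 in the liver contrast.

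Among genotypes, the clearest difference was that of the Ccl21b probe ILMN_2640842 in liver. Ccl21 binds Ccr7 and leads T cells and dendritic cells into lymph nodes. The XX liver pools read 5.91, 6.26 and 6.14, the XpO pools 7.03, 7.26 and 6.75, and the XmO pools 6.85, 6.85 and 6.74. All 6 XO pools lay above all 3 XX pools, and the XX pools lay close to the level of undetected probes in liver (5.97). Before normalisation the intensities were 55.1, 68.6 and 62.2 in the XX pools and 81.0 to 111.7 in the XO pools, so that the XX pools lay below all XO pools there too. The XX mean was 1.75-fold lower than the XO mean, a log2 difference of -0.81 (SE 0.117, adjusted p = 0.0126 by limma, 3 against 6 pools).

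Taken against each XO genotype alone, the XX liver pools differed for Ccl21b ILMN_2640842 by -0.91 from XpO (SE 0.127, adjusted p = 0.0290) and by -0.71 from XmO (SE 0.127, adjusted p = 0.0178). The XpO comparison lies within a single cross. These comparisons share the XX pools. Without XX pool 3 the difference from all XO pools was -0.83 with an adjusted p of 0.0700, and without each of the other 8 pools it passed. The XX against XpO call was kept without XpO pool 3 or XmO pool 1 and lost without any of the other 7 pools (adjusted p 0.0533 to 0.113). The XX against XmO call was lost without XX pool 3 (adjusted p = 0.0567) or XmO pool 3 (adjusted p = 0.0575). On the authors' own scale, which is narrower for dim probes, the differences were -0.23 from all XO (adjusted p = 0.0221), -0.27 from XpO (adjusted p = 0.0349) and -0.18 from XmO (adjusted p = 0.0501).

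The other Ccl21 probes did not pass in liver. Ccl21a ILMN_1213286 read 5.88, 6.09 and 6.19 in XX, 6.47, 6.89 and 6.56 in XpO, and 6.33, 6.59 and 5.97 in XmO liver. Its XpO pools lay above the XX pools while its XmO pools overlapped with them, and the difference of XX from XO was -0.42 (adjusted p = 0.116). Ccl21b ILMN_2602139 read 6.10, 6.02 and 6.43 in XX, 6.38, 6.79 and 6.45 in XpO, and 6.43, 6.31 and 6.17 in XmO liver, a difference of -0.23 (adjusted p = 0.250). Both had the same sign as ILMN_2640842, and their groups overlapped. Across the 35 arrays, after the tissue mean was taken away, ILMN_2640842 correlated with Ccl21a at r = 0.793 and with the other Ccl21b probe at r = 0.766, the highest values among 17020 probes. These points share arrays and normalisation. Next came Ogn, which encodes an extracellular matrix protein (0.723), Mkln1 (0.674) and Dnajc2 (0.672).

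In the other tissues the order of genotypes for ILMN_2640842 was not that of liver. In kidney the XX pools read 8.65, 8.37 and 8.37, the XpO pools 8.26, 8.63 and 8.49, and the XmO pools 7.83, 8.31 and 7.79. The kidney XmO pools lay below the XX pools (0.48 for XX less XmO, adjusted p = 0.112), while XX and XpO overlapped. In muscle it read 10.03, 10.10 and 10.65 in XX, 10.33 and 9.82 in XpO, and 10.11, 10.49 and 10.40 in XmO, and in brain 6.33, 6.64 and 6.21, 6.57, 6.34 and 6.55, and 6.25, 6.07 and 6.45. All groups overlapped in muscle and in brain. A limma fit over the 35 arrays tested whether the XX less XO difference was the same in the 4 tissues. For this probe liver gave -0.81, kidney 0.24, muscle 0.06 and brain 0.02, and the differences were unequal (adjusted p = 0.00829). In this fit XO is the mean of the XpO and XmO means, so that its muscle values differ slightly from those of the fit within muscle.

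**Figure D3:**
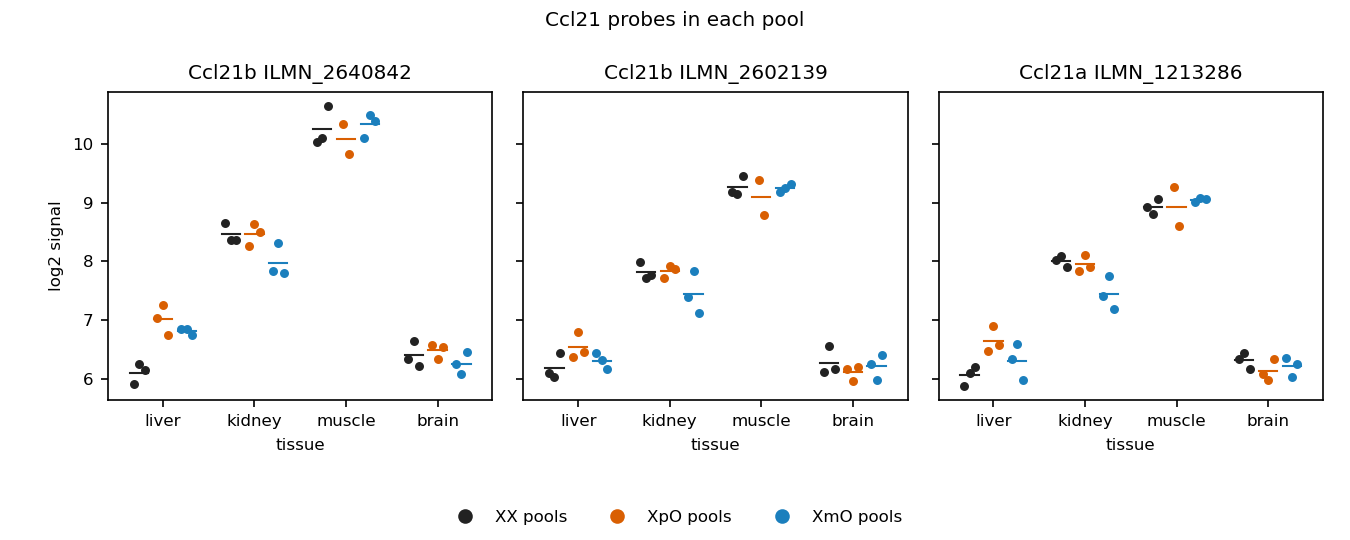
Log2 signal (vertical axis) of the 3 Ccl21 probes in each pool of the 4 tissues (horizontal axis), with pools coloured by genotype and a line at each group mean. In liver the 3 XX pools of ILMN_2640842 read 5.91 to 6.26 and the 6 XO pools 6.74 to 7.26; in kidney, muscle and brain the XX pools lie within or above the range of the XO pools.

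Of the 31 members detected in liver, 2 passed between XX and XO, both lower in XX (5.7% of all probes passed), and 10 at an unadjusted p under 0.05. Between XX and XpO 1 of 31 passed (0.146%), between XX and XmO 4 of 31, all lower in XX (7.8%), and between XmO and XpO none by limma (0.0503%), with 9, 10 and 2 at an unadjusted p under 0.05. Groups did not overlap for 5 members between XX and XO. The shares of all probes with groups apart, or with an unadjusted p under 0.05, are not given here. The median difference of XX from XO was -0.03 for the 31 members and -0.01 for all 19878 probes. Between XX and XO, 2 of 31 was close to the share of all probes, of which 1133 passed.

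Ccl26, known in humans as eotaxin-3, was the other member that passed between XX and XO liver. It read 6.34, 6.19 and 6.22 in XX, 6.61, 6.56 and 6.43 in XpO, and 6.49, 6.61 and 6.61 in XmO. The groups did not overlap, and the difference was -0.30 (SE 0.0701, adjusted p = 0.0345), or 1.23-fold. From XmO alone it was -0.32 (adjusted p = 0.0415) and from XpO alone -0.28 (adjusted p = 0.123). The XX against XO call was kept only without XpO pool 3. Leaving out any of the other 8 pools gave an adjusted p of 0.0512 to 0.133, and for XX against XmO 0.0508 to 0.118. On the authors' scale the difference from XO was -0.08 (adjusted p = 0.0694).

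Cxcl12 and Ccl28 passed in liver between XX and XmO. Cxcl12 ILMN_2737302 read 10.06, 10.03 and 10.06 in XX, 10.08, 10.30 and 10.23 in XpO, and 10.44, 10.41 and 10.27 in XmO liver. Its XX pools were all below both XO groups, with a difference of -0.32 from XmO (SE 0.0821, adjusted p = 0.0396) and of -0.24 from all XO (adjusted p = 0.0926). The call was kept without XpO pool 1 or XpO pool 2 and lost without any of the other 7 pools (adjusted p 0.0552 to 0.10). Its other probe, ILMN_2658910, differed by -0.08 between XX and XmO. Ccl28 ILMN_2545248 read 6.63, 6.40 and 6.37 in XX, 6.69, 6.72 and 6.60 in XpO, and 6.91, 6.74 and 6.75 in XmO. Its difference from XmO was -0.33 (SE 0.0905, adjusted p = 0.0474). The Ccl28 call was kept only without XX pool 1 and lost without any other pool (adjusted p 0.0620 to 0.140), and on the authors' scale the difference was -0.10 (adjusted p = 0.0887). That of Cxcl12 was -0.32 there (adjusted p = 0.0227).

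Further liver members whose groups stood apart missed the threshold. Cxcl9 ILMN_1215862 read 9.48, 9.79 and 9.57 in XX, 9.47, 9.13 and 9.41 in XpO, and 9.25, 9.35 and 9.32 in XmO, a difference of 0.29 between XX and XO (adjusted p = 0.0717). Ccl22, a ligand of Ccr4, read 6.21, 6.44 and 6.24 in XX and at most 6.20 in XpO and 6.21 in XmO, where the nearest pools all but touched (0.19, adjusted p = 0.141). The receptor Ccr1 read 6.12, 6.20 and 6.23 in XX and 6.28, 6.54 and 6.59 in XmO (-0.28, adjusted p = 0.0794). Ccl5, a T cell attractant, read 7.05, 7.35 and 7.02 in XX and 6.97, 6.91 and 6.57 in XmO (0.32, adjusted p = 0.0982). Between XmO and XpO liver the smallest p among members whose groups stood apart belonged to Ccl5 (-0.26, adjusted p = 0.514), followed by Cxcl9 ILMN_1242483 (0.19, adjusted p = 0.645) and Ccl28 ILMN_2545248 (0.13, adjusted p = 0.677), and the lowest adjusted p of any member was 0.488.

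**Figure D4:**
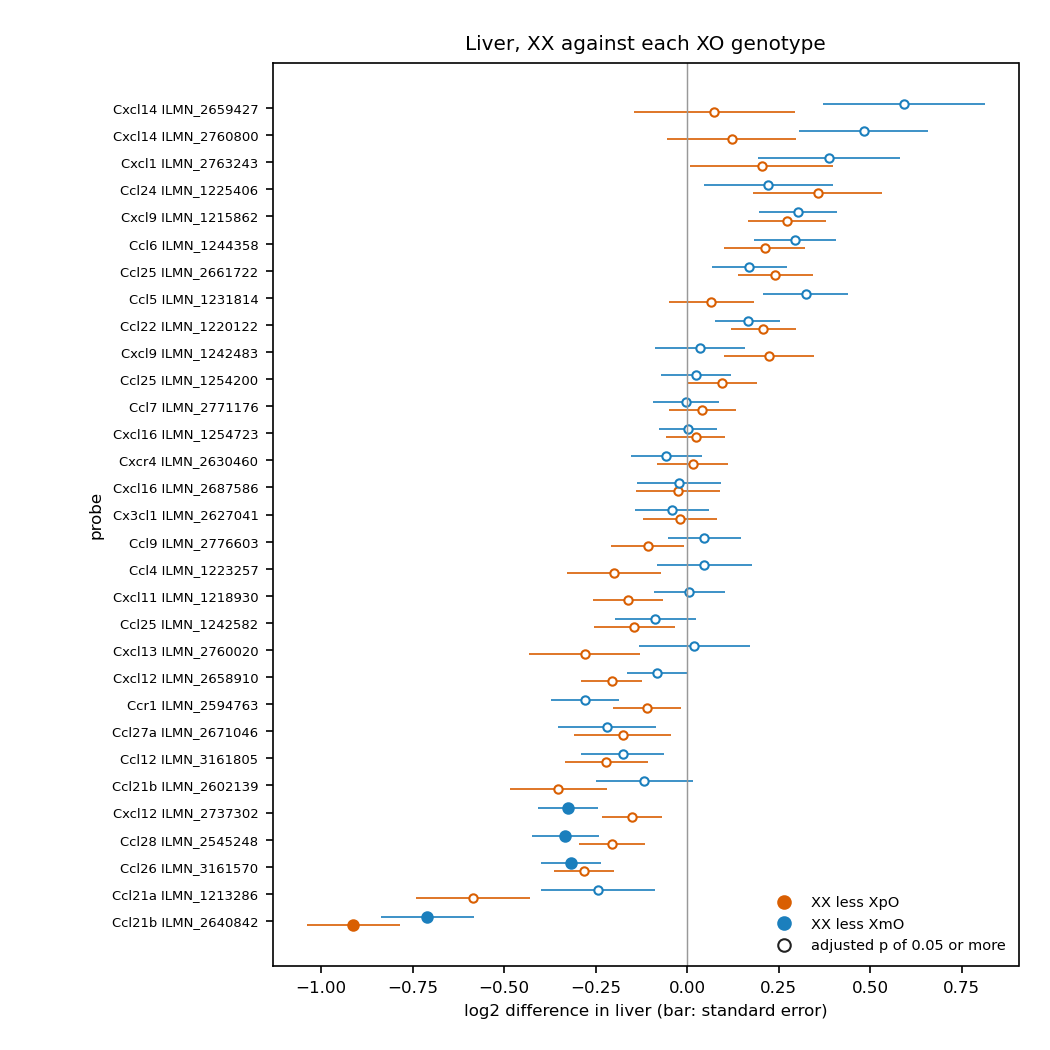
Log2 difference in liver (horizontal axis, bars of 1 standard error) of XX from XpO and from XmO for the 31 members detected there, ordered by the difference of XX from all XO pools, with filled points past an adjusted p of 0.05. The Ccl21b probe ILMN_2640842 lies lowest, at -0.91 and -0.71, and the other filled points (Ccl26, Ccl28 and Cxcl12 against XmO) lie near -0.32.

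Other measures moved with the liver groups. Before normalisation, the summed intensity of 7 probes of hepatocyte markers was 110600 to 114900 in XX, 148800 to 160800 in XpO and 145800 to 149800 in XmO liver, while the medians of the liver arrays were 55.6 to 60.1. After normalisation the median difference of these probes between XX and XO was -0.02. Which BeadChip held which array is not given in the sources used here, so that its part in the liver results was not tested. Leukocyte marker probes (Laptm5, Cd52, Cd53 and others, 7 probes) summed to 1856 to 2276 in XX, 2342 to 2501 in XpO and 1916 to 2031 in XmO, and 0 of 7 passed between XX and XO by limma (4 at an unadjusted p under 0.05, median difference 0.21). Of 4 probes of B cell and plasma cell markers 2 passed by limma, where 5.7% of all probes did. Both were of 1 gene, Cd74, the invariant chain of antigen presentation and a receptor of Mif. They were higher in XX (0.54, adjusted p = 0.0179, and 0.40, adjusted p = 0.0390). The sum of the 4 was 750.3 to 938.6 in XX, 644.9 to 741.4 in XpO and 592.8 to 641.1 in XmO. The 12 macrophage probes summed to 3933 to 4794 in XX, 4757 to 5177 in XpO and 4233 to 4491 in XmO, and 0 of 12 passed by limma (3 unadjusted). Of 4 T cell probes none passed (1 at an unadjusted p under 0.05). For these unadjusted counts the share of all probes is not given here. Of the lymph node markers Glycam1 was not detected in liver, and Lyve1, of lymphatic and sinusoidal endothelium, differed by -0.11 (adjusted p = 0.534). The part of these cells in the Ccl21b result was not tested.

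The other genes of the pathway were read from fixed lists. Of 44 probes detected in liver for 31 genes of receptor signalling, 4 passed by limma as higher and 1 as lower in XX than in XO. Of all probes detected in liver 5.7% passed in this comparison, and no test of the list was made. Those higher were Gnai2, a G protein subunit that chemokine receptors couple to (0.35, adjusted p = 0.0289), Was, an actin regulator of blood cells on the X chromosome (0.42, adjusted p = 0.0333), Pxn, a focal adhesion protein (0.33, adjusted p = 0.0368), and Stat3 (0.30, adjusted p = 0.0466). Gng5, another G protein subunit, was lower (-0.35, adjusted p = 0.0289). The median of the list was 0.09 against -0.01 for all probes. Of 18 probes for genes that induce chemokines or respond with them (NF-kappaB subunits, cytokines, interferon targets) none passed by limma, and 5 had an unadjusted p under 0.05. Of 8 probes for related ligands and receptors only those of Cd74 passed. No probe of these 3 lists passed between XX and XO in kidney, muscle or brain, where 8, 6 and 0 probes of receptor signalling had an unadjusted p under 0.05. For none of the 4 tissues is the share of all probes at an unadjusted p under 0.05 given here.

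In kidney none of 34 members passed the adjusted threshold by limma in any comparison. Of all probes 0.047% passed it between XX and XO, 0.0897% between XmO and XpO, 0.0214% between XX and XpO and 0.713% between XX and XmO. At an unadjusted p under 0.05 the counts of members were 6, 12, 6 and 10 in that order. The share of all probes at an unadjusted p under 0.05 is not given here. Groups stood apart for 2, 11, 7 and 9 members, again without the share of all probes, so that no result about the members is read from these counts. Cxcl16 ILMN_2687586 came nearest between XX and XO. It read 9.83, 10.0 and 9.92 in XX, 10.30, 10.20 and 10.31 in XpO, and 10.20, 10.24 and 10.09 in XmO, so that each XX pool lay below each XO pool, with a difference of -0.30 (SE 0.0635, adjusted p = 0.148). The other Cxcl16 probe read 7.60, 7.50 and 7.46 in XX and 7.92, 7.87 and 7.82 in XpO (-0.35, adjusted p = 0.200), with XmO between them at 7.56 to 7.74.

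Between XX and XmO kidney, Ccl21a ILMN_1213286 had the smallest p. It read 8.02, 8.09 and 7.90 in XX, 7.84, 8.10 and 7.91 in XpO, and 7.40, 7.75 and 7.19 in XmO. The XmO pools lay below all others, by 0.55 from XX (SE 0.123, adjusted p = 0.0638) and by 0.50 from XpO (adjusted p = 0.162). Without XmO pool 2 the difference from XX was 0.70 with an adjusted p of 0.0268. Ccl21b ILMN_2602139 read 7.99, 7.72 and 7.77 in XX, 7.71, 7.92 and 7.86 in XpO, and 7.39, 7.84 and 7.11 in XmO kidney (0.38 for XX less XmO, adjusted p = 0.220). Cxcl9 ILMN_1215862 read 6.59, 7.01 and 6.90 in XX, 6.56, 6.57 and 6.55 in XpO, and 6.45, 6.50 and 6.11 in XmO (0.48 for XX less XmO, adjusted p = 0.0797). Ccl11 read 6.06, 6.29 and 6.60 in XX and 5.65, 5.97 and 5.79 in XmO (0.51, adjusted p = 0.102). Without XX pool 1 both passed between XX and XmO (adjusted p = 0.0176 and 0.0342), as did Ccl27a (-0.46, adjusted p = 0.0167) and Ccl28 ILMN_1218590 (-1.08, adjusted p = 0.0111), which were noted after their values were seen. With all pools those 2 differences were -0.24 (adjusted p = 0.407) and -0.55 (adjusted p = 0.426). XX pool 1 had read 8.15 for that Ccl28 probe against 6.35 and 6.78 in the other XX pools, and 7.38 to 7.86 in XmO. Ccl27a then also passed between XX and XO kidney (-0.43, adjusted p = 0.0278), against -0.21 (adjusted p = 0.507) with all pools.

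Sums of markers of other cells varied both within and between these kidney groups. Before normalisation, 3 adipocyte probes summed to 1287 to 4584 in XX, 1040 to 2369 in XpO and 186.7 to 1501 in XmO kidney. The 7 leukocyte probes (6 with values) summed to 2408 to 2928, 2133 to 2426 and 1691 to 2308. The adipocyte ranges of all groups overlapped, and so did the leukocyte ranges except those of XX and XmO. Between XX and XmO 0 of 3 and 0 of 6 passed by limma. Counts at an unadjusted p under 0.05 were 2 and 4, with the share of all probes not given here. The part of these cells in the Ccl21a, Cxcl9 and Ccl11 values was not tested.

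Cxcl14 and Cx3cl1 set the XO genotypes apart in kidney without passing. Cxcl14 ILMN_2760800 read 7.15, 7.61 and 7.11 in XmO and 6.63, 6.97 and 6.57 in XpO (0.57, adjusted p = 0.224), with XX at 6.72 to 7.25. The other Cxcl14 probe read 6.25, 6.52 and 6.60 in XX and 5.82, 6.01 and 6.21 in XpO kidney (0.44, adjusted p = 0.328). Cx3cl1 read 9.51, 9.34 and 9.13 in XmO and 9.82, 9.66 and 9.59 in XpO kidney (-0.36, adjusted p = 0.240).

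In muscle, with 5 XO pools, none of 33 members passed the adjusted threshold by limma. Of all probes 0.00917% passed it between XX and XO, 0.0138% between XmO and XpO, 0.0138% between XX and XpO and 0.16% between XX and XmO. At an unadjusted p under 0.05 the counts of members were 7, 3, 8 and 3 in that order, with the share of all probes at that level not given here. Cxcr4 showed the largest difference among the groups that stood apart for XmO against XpO: it read 7.52, 7.16 and 7.70 in XmO and 8.06 and 8.09 in XpO (-0.61, SE 0.144, adjusted p = 0.265), with XX at 7.62 to 7.89. Ccl9 read 8.49, 8.45 and 8.49 in XX, 8.67 and 8.78 in XpO, and 8.57, 8.75 and 8.85 in XmO muscle (-0.25 between XX and XO, adjusted p = 0.191). Ccl26 lay the other way from liver, at 6.34, 6.40 and 6.45 in XX and 6.15 to 6.27 in XO muscle (0.22, adjusted p = 0.191). Ccl12, a monocyte attractant, read 6.20, 6.35 and 6.40 in XX and 6.07 to 6.14 in XO (ILMN_3161805, 0.20, adjusted p = 0.222). Before normalisation the XX and XO pools of both Ccl26 and Ccl12 overlapped. The Ccl26 intensities were 72.5, 76 and 76.9 in XX and 71.2 to 78.9 in XO muscle. Those of Ccl12 were 66.5 to 75 in XX and 67.2 to 73.8 in XO. Ccl27a read 6.83 to 7.33 in XX and 7.44 and 7.63 in XpO (-0.54, adjusted p = 0.226), and the B cell attractant Cxcl13 read 6.05 to 6.71 in XX and 6.85 and 6.91 in XpO (-0.52, adjusted p = 0.238). Cx3cr1 read 6.13 to 6.51 in XX and 5.95 and 5.99 in XpO (0.35, adjusted p = 0.244). Its intensities before normalisation overlapped, at 64.1 to 80.7 in XX and 64.8 and 68.2 in XpO. Cx3cl1 read 6.43 to 6.74 in XmO and 6.83 and 6.87 in XpO (-0.26, adjusted p = 0.528).

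Marker sums before normalisation also differed between the muscle groups, and so did the medians of whole arrays. These medians were 58.6 to 59 in XX, 65.9 and 67.4 in XpO, and 63.4 to 64.4 in XmO muscle. The 7 hepatocyte probes (6 with values) summed to 2661 to 4694 in XX, 6320 to 10810 in XpO and 7530 to 17060 in XmO muscle, and adipocyte probes to 2680 to 4423, 3866 to 6867 and 7184 to 12050. The 2 lymph node probes (1 with values) summed to 297.6 to 332.2, 427.4 to 535.1 and 430.8 to 503.3, and muscle fibre probes summed to 101800 to 107700, 122300 to 129500 and 120300 to 125900. The XX range lay below both XO ranges in each of these except that of adipocytes, where XX and XpO overlapped. None of these 4 lists had a probe past the threshold between XX and XO by limma. Counts at an unadjusted p under 0.05 were 4, 0, 1 and 4, with the share of all probes not given here. In sums before normalisation, a dimmer array and fewer cells of a type cannot be told apart. The part of either in the muscle values was not tested.

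In brain none of 28 members passed the adjusted threshold by limma. Of all probes 0.00402% passed it between XX and XO, 0.0161% between XmO and XpO, 0.00804% between XX and XpO and 0.0282% between XX and XmO. At an unadjusted p under 0.05 the counts of members were 1, 3, 3 and 2 in that order, with the share of all probes at that level not given here. Cxcl12 ILMN_2737302 read 7.43, 7.26 and 7.92 in XX, 7.24, 6.97 and 6.82 in XpO, and 7.02, 7.22 and 7.15 in XmO, so that each XX pool lay above each XO pool (0.47, SE 0.146, adjusted p = 1.00), opposite in sign to liver. Without XX pool 3 it was 0.28 (adjusted p = 1.00). The other Cxcl12 probe, ILMN_2658910, differed by -0.07 between XX and XO brain, and its groups overlapped. Ccl12 ILMN_3161805 read 5.94, 6.0 and 6.07 in XmO and 6.23, 6.27 and 6.23 in XpO (-0.24, adjusted p = 0.272), with XX at 6.14 to 6.19. Its other probe had the same order for XmO and XpO (-0.22, adjusted p = 0.366). Ccl4 read 6.15, 6.22 and 6.12 in XmO and 6.35, 6.37 and 6.37 in XpO (-0.20, adjusted p = 0.391). Cxcr4 read 6.48 to 6.65 in XX and 6.76 to 6.80 in XpO brain (-0.19), and Ccl17 read 6.43 to 6.63 in XX and 6.29 to 6.37 in XmO.

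Over the 4 tissues, 5 of 40 members had an XX less XO difference that was unequal between tissues (6.45% of all probes passed, and 13 members had an unadjusted p under 0.05), and none had an unequal XmO less XpO difference by limma (0.786%, 4 unadjusted). Beside Ccl21b these were Ccl26 (-0.30, 0.02, 0.21 and 0.03 for liver, kidney, muscle and brain, adjusted p = 0.00391), Ccl28 ILMN_2545248 (-0.27, -0.02, 0.19 and 0.03, adjusted p = 0.0113), Cxcl12 ILMN_2737302 (-0.24, 0.0, 0.20 and 0.47, adjusted p = 0.0134) and Ccl9 (-0.03, 0.27, -0.25 and 0.10, adjusted p = 0.0486). The shares of all probes at an unadjusted p under 0.05 are not given here for either difference. The other Cxcl12 probe, ILMN_2658910, gave -0.14, 0.17, -0.08 and -0.07 in the same tissue order (adjusted p = 0.340 by limma). The other Ccl28 probe, ILMN_1218590, was detected in kidney alone and gave 0.0, -0.32, 0.09 and 0.02 (adjusted p = 0.745 by limma). Ccl26 and Ccl28 ILMN_2545248 were dim in every tissue, with medians of 6.15 to 6.49 and 6.19 to 6.69, against 5.87 to 5.97 for undetected probes. Another dim probe, Ccl12 ILMN_3161805, had a like profile without passing in this limma fit (-0.20, -0.03, 0.20 and 0.05, adjusted p = 0.0684). Whether dim probes share this profile was not tested. Within a single tissue only the liver differences of Ccl21b and Ccl26 had passed between XX and XO. The fit over tissues takes 1 spread for all of them and takes arrays as independent, although the tissues came from the same pools of mice. On simulated data it made more wrong calls than its threshold allows where tissues differed in spread, and fewer, but still more than allowed, with the spreads kept apart. With the pool as a block 4 members passed and Ccl9 did not (adjusted p = 0.0893). With the spread of each tissue kept apart, an alternative chosen after the data were seen, Ccl28 missed the threshold (adjusted p = 0.0570), Ccl21a passed (adjusted p = 0.0483) and the other 4 kept their calls, Ccl21b with an adjusted p of 0.00513. On the authors' scale neither Ccl21b (adjusted p = 0.410) nor Ccl9 (adjusted p = 0.0898) passed. Leaving out XX pool 3 from every tissue left Ccl21b alone past the threshold (adjusted p = 0.0275), and leaving out XX pool 1 took its call away (adjusted p = 0.0519). The Ccl9 call was kept without XpO pool 3 or XmO pool 1 and lost without any other pool (adjusted p 0.0508 to 0.272). Ccl28 also lost its call without XX pool 2 or XpO pool 1 (adjusted p = 0.126 and 0.0553), and Cxcl12 without XpO pool 2 (adjusted p = 0.0561).

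**Figure D5:**
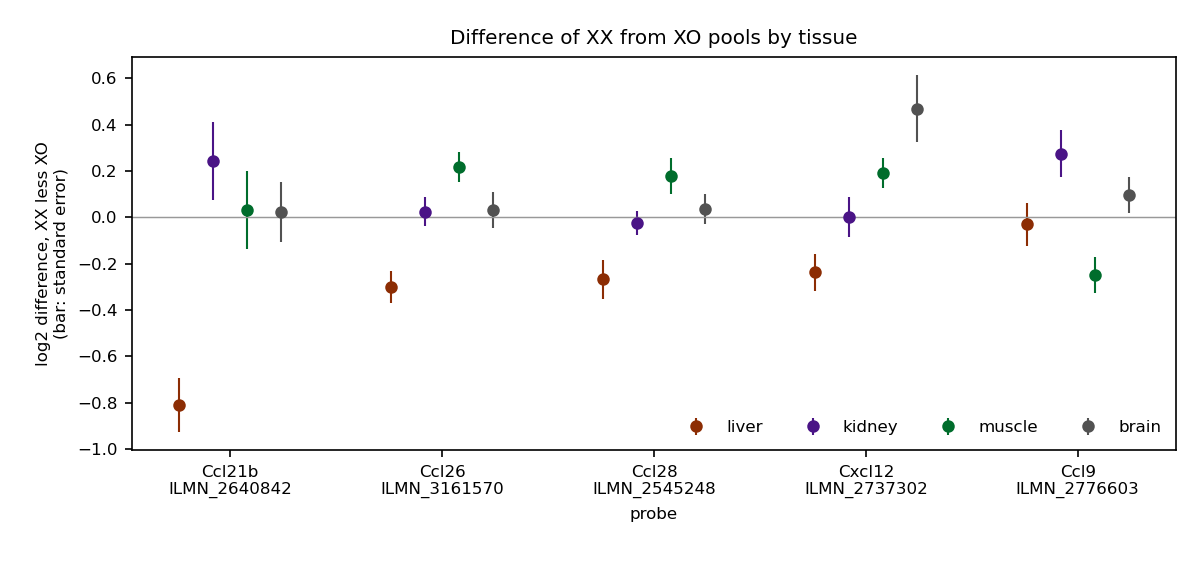
Log2 difference of XX from XO pools (vertical axis, bars of 1 standard error) in each tissue for the 5 members whose difference was unequal between tissues, each tissue fitted on its own. Liver lies below 0 for Ccl21b (-0.81), Ccl26 (-0.30), Ccl28 (-0.27) and Cxcl12 (-0.24), while brain lies highest for Cxcl12 (0.47) and muscle lowest for Ccl9 (-0.25).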

How the data were processed

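The authors hybridised pooled total RNA to Illumina Mouse WG-6 v1.1 BeadChips and deposited a table of probe intensities for all arrays, read with BeadStudio per the labels (its version is not given in the sources used here), and a table of normalised log2 values. Per the study's methods the latter was made with the lumi package, and probes not detected in a tissue are blank there. Its log2 values, deposited per array, are narrower for dim probes than log2 of the intensities. Intensities carry decimal commas, have no detection p and no background probes, and 707 of 46632 probe identifiers stand on more than 1 line (696 with the same values), which were averaged.

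Here intensities were set to at least 1, taken to log2 and quantile normalised over 35 arrays, with no background correction, and the 28885 probes of the normalised table were kept. The intensity column of XpO pool 3 in muscle was left out because its values are small whole numbers with no rank correlation to the authors' values, while the other arrays reached at least 0.999943. Columns of other series numbered 0. GEO's platform annotation gave 1 symbol to 21014 probes, several to 6 and none to 7865. Genotypes were compared within a tissue over the probes with values there, and tissues over all probes, by limma 3.58.1 in R 4.3.3 with Benjamini-Hochberg adjustment and a threshold of 0.05. The main fits had no replicate block. Groups came from GEO's labels, the pools of a genotype hold different mice per the study's methods, and p-values measure the spread between pools. Depth has no meaning for arrays, and the number of pools limits the precision.

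The text names members past the threshold between genotypes, up to 3 more per comparison with the smallest p among those whose groups did not overlap, up to 6 per tissue with the largest difference from the other tissues, the 3 Ccl21 probes, receptors of named ligands, and the 5 probes most like the Ccl21b probes. Others were named after their values were seen (Ccl24, Ccl4, Ccl5, Ccl6, Ccl7 and Cxcl15 between tissues). Members, gene lists and tests were chosen with earlier results of these data known. Where a probe was not detected in a tissue, the fold is a lower bound: the level used there is, for each array, the higher of the lowest signal among probes detected in that tissue and the probe's own signal.

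Scripts were checked on simulated data. The fit of differences between tissues takes 1 spread for all tissues and made more wrong calls than its threshold allows when each tissue had its own spread. With each tissue's spread kept apart it made fewer, though still more than allowed. Alternatives were the authors' values, quantiles within each tissue, median scaling, normexp background correction (offset 50), no filter or only probes above the median, the pool number as a block, a fit of 12 groups, and leaving out each pool. A block for the BeadChip was not run, since the files do not name the chip of each array. Sequences and the gene table are of RefSeq on GRCm38.p6. Python 3.11.15 with numpy 2.4.6, pandas 2.3.3, scipy 1.17.1 and matplotlib 3.10.9 was used for tables and figures.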

Additional observations from a re-analysis of the deposited data

Results flagged for a closer look

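Single pools that lay far from the rest of their group were sought in 126 groups of 5 or 6 XO pools, and chance alone marks about 1 in 20 groups. There were 5. For Ccl25, a ligand of Ccr9 in thymus and gut, XmO pool 2 was lowest among the kidney XO pools (5.80 for ILMN_1242582, the nearest at 6.03). For Ccl26 in muscle XpO pool 2 was highest (6.27, the nearest at 6.18). For Cx3cr1 in brain XmO pool 2 was lowest (7.71, the nearest at 8.59), and the same pool had the lowest brain signals of Cx3cl1 and Ccl27a. For Cxcl11 in liver XpO pool 2 was highest (6.90, the nearest at 6.65). For Cxcl9 ILMN_1215862 in kidney XmO pool 3 was lowest (6.11, the nearest at 6.45). On the array scale (log2 signal) these gaps spanned 0.629 to 0.782 of the range of their group.

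A difference between XX and XO that was unequal between the 4 tissues was found for Ccl21b ILMN_2640842 (adjusted p = 0.00829), Ccl26 (adjusted p = 0.00391), Ccl28 ILMN_2545248 (adjusted p = 0.0113), Ccl9 (adjusted p = 0.0486) and Cxcl12 ILMN_2737302 (adjusted p = 0.0134), by limma over 35 arrays. Liver was the lowest of the 4 tissues for each of these but Ccl9, and Ccl26 and Ccl28 ILMN_2545248 were dim in every tissue. The other probes of Ccl28 and Cxcl12 did not pass in this limma fit (adjusted p = 0.745 and 0.340).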

How the results depend on the processing

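Of 1946 alternative values for 123 named results, 1813 kept their direction and their side of the threshold, 17 passed anew, 73 no longer passed and 43 changed sign. The last belonged to 17 differences of Ccl21 probes outside liver, which were -0.09 to 0.25 with all pools and passed no threshold. For Ccl21b ILMN_2640842 in muscle, XX less XO was 0.03, but -0.0283 on the authors' values, -0.12 with median scaling, -0.0207 with the replicate block and -0.17 to 0.15 with a pool left out. With a pool left out its other muscle differences were -0.27 to 0.0453 (XX less XmO), -0.0724 to 0.44 (XX less XpO) and -0.000524 to 0.51 (XmO less XpO). In brain they were -0.0988 to 0.11 (XX less XO) and -0.21 to 0.000651 (XX less XpO), and in kidney -0.0994 to 0.0841 (XX less XpO), with -0.00333 on the authors' values. For Ccl21b ILMN_2602139 they were -0.0197 to 0.13 (XX less XO, -0.0788 with median scaling), -0.0842 to 0.0685 (XX less XmO, -0.15 with median scaling), -0.12 to 0.46 (XX less XpO) and -0.13 to 0.45 (XmO less XpO) in muscle. In brain they were -0.0259 to 0.20 (XX less XO) and -0.076 to 0.16 (XX less XmO), and in kidney -0.0864 to 0.049 (XX less XpO, 0.0359 with median scaling). For Ccl21a they were -0.33 to 0.33 (XX less XpO, 0.0017 with quantiles within the tissue) and -0.21 to 0.45 (XmO less XpO, -0.0167 on the authors' values) in muscle, and -0.000592 to 0.13 (XX less XpO) in kidney.

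Counts of members past the threshold moved as follows. In liver, XX against XO gave 1 on the authors' values, 4 with median scaling, 0 among brighter probes, 4 in the fit of 12 groups and 0 to 2 with a pool left out (2 in the report). XX against XpO gave 6 with median scaling, 0 among brighter probes, 3 with 12 groups and 0 to 1 with a pool left out (1 in the report). XX against XmO gave 1 on the authors' values, 2 with quantiles within the tissue, 2 with median scaling, 1 among brighter probes and 0 to 2 with a pool left out (4 in the report). In kidney, the fit of 12 groups gave 1 between XX and XpO (a Cxcl16 probe) and 1 between XX and XmO (Ccl11), and leaving out a pool gave 0 to 1 between XX and XO and 0 to 4 between XX and XmO. In muscle, median scaling gave 1 between XX and XO (Ccl9, -0.40, adjusted p = 0.0396) and 12 groups gave 1 between XmO and XpO (Cxcr4, adjusted p = 0.00816). With the block below set aside, the other counts of 0 between genotypes stayed at 0, those in brain without XX pool 3 and XmO pool 2 included. For tissues, the authors' values gave 22, 19 and 22 of 22 members for liver, muscle and brain, and brighter probes 16, 14, 17 and 17 of 17 for liver, kidney, muscle and brain. With a pool left out they gave 34 to 36, 29 to 31, 29 to 31 and 34 to 36 of 40. For differences between tissues, XX less XO gave 2 among brighter probes and 1 to 5 with a pool left out (5 in the report). XmO less XpO gave 1 on the authors' values and 0 to 1 with a pool left out, each time Cxcr4. Causes were not tested, beyond fewer members in the fit of the authors' values and brighter probes.

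Pool numbers did not pair the samples: same-numbered pools of a tissue correlated at -0.583 to 0.37 in their deviations, with 4 of 34 pairs over 0.1. Arrays of 1 pool in 2 tissues correlated at -0.0721 to 0.271 (median 0.118), with 31 of 51 pairs over 0.1. With the replicate block the liver counts were 1 for XX against XO and 2 for XX against XmO, and in kidney 1 for XmO against XpO (Cxcl14) and 1 for XX against XmO (Ccl21a). The number of pools limits small differences, and signals under 5.97 are at the level of undetected probes.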
